A study of Mus musculus with 8 samples.

Results

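A set of 28 genes of cholesterol synthesis and efflux was followed in cultured fat cells exposed to asbestos. They were taken by gene symbol from the probes of the array. All 28 were measured, among 23041 genes tested. They comprise 7 mevalonate and isoprenoid enzymes, 11 squalene and sterol enzymes, 5 genes of SREBP control and sterol transport, and 5 genes of the LXR receptors and efflux. The enzyme Msmo1 is listed on the array under its older symbol Sc4mol.

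The cells were mature adipocytes of 3T3-L1, a mouse preadipocyte line that turns into fat cells in culture. They are a cell line without the vessels, nerves and immune cells of adipose tissue. The 4 groups were chrysotile (a serpentine asbestos of curled fibres), crocidolite and amosite (amphibole asbestos of straight, iron-rich fibres), and physiological saline as the control. Each fibre was given at 10 mg/cm2, as the labels write it, for 72 h, and RNA from each group was hybridised to 2 arrays of 1 slide. No genetic change separated the groups.

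Cells make cholesterol from acetyl-CoA through mevalonate, farnesyl diphosphate and squalene, and the enzymes of this route share 1 transcription factor, SREBP-2, encoded by Srebf2. When sterols are scarce, SCAP carries SREBP-2 out of the endoplasmic reticulum for cleavage, and when sterols are plentiful the INSIG proteins hold SCAP back. Excess sterol instead gives oxysterols that activate the LXR receptors, which raise the exporters ABCA1 and ABCG1. Adipocytes store much of the body's free cholesterol, mostly around and in the lipid droplet.

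Promoters of 4 members are shown because they hold elements through which each branch is known to be controlled. Of the 28 genes, 22 have a promoter in the RefSeq set (build GRCm38.p6, from 250 bases before to 50 after the start). In these runs, given 5′ to 3′ in the direction of the gene, capitals mark the sterol regulatory element TCACNCCAC and the NF-Y box CCAAT (or its complement ATTGG) in Hmgcs1 at chr13:119690101-119690325 on the plus strand. They mark the NF-Y boxes in Mvk at chr5:114444081-114444268 on the plus strand, and the E-box CACGTG and the NF-Y box in Insig1 at chr5:28071181-28071331 on the plus strand. In Abca1 at chr4:53159933-53159977 on the minus strand they mark the LXR direct repeat, the letters GGTNA and, after 5 bases, GGTCA, which lie on the other strand.
Hmgcs1: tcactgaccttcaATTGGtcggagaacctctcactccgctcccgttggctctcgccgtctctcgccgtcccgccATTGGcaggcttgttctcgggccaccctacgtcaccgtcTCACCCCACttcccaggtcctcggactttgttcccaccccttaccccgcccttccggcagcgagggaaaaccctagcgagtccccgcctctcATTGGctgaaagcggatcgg
Mvk: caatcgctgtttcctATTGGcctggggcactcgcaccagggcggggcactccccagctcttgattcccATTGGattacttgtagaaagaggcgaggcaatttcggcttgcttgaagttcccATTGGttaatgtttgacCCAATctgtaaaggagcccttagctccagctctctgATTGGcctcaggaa
Insig1: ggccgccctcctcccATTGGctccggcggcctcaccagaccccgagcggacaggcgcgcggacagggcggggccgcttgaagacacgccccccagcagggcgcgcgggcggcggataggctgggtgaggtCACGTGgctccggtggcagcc
Abca1: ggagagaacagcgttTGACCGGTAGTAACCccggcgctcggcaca

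Most enzyme genes held the NF-Y box, the site of a partner of SREBP-2. Searched on both strands, CCAAT was present in 17 of the 22 genes (77.3%), against 41.1% of all 27025 genes with a promoter, and in 14 of the 15 enzyme genes. The Sp1 box GGGCGG was present in 19 genes (86.4%, against 38.2% of all genes), and CACGTG in 6 (27.3%, against 8.09%). The full sterol element was found in Hmgcs1 alone (4.55%, against 1.44%), starting at base -137 from the start, and the LXR repeat in Abca1 alone (4.55%, against 0.226%). These counts say which letters lie in a short window and nothing on binding.

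Adipocyte markers were detected on every array, beside markers of preadipocytes and fibroblasts. All 10 adipocyte markers (adiponectin, adipsin, Fabp4 and perilipin among them) were above background on all 8 arrays. Their summed intensity, in multiples of each array's 75th percentile, was 2676 to 2789 with chrysotile, 2554 to 2741 with crocidolite, 2639 to 2778 with amosite and 2579 to 3371 with saline. The 8 preadipocyte and fibroblast markers were also measured, with sums of 709.9 to 819.5 over all arrays. They ran from Cd34 (-4.18 to -3.20 log2) to Col3a1 (7.99 to 8.35), with the preadipocyte marker Dlk1 at 6.97 to 8.11. The adipocyte markers ran from Lep (-2.97 to -1.80) to adipsin (9.77 to 10.10). These levels come from different probes and are not compared with each other. The share of undifferentiated cells was not tested. Of 8 macrophage markers 5 were measured, with sums of 59.98 to 73.47 that Itgam (5.74 to 6.04 log2 on the 8 arrays) dominates, while Adgre1, Lyz2 and Tyrobp were above background on at most 3 arrays, Lyz2 on 0. The 5 measured macrophage markers did not move together, and none passed the adjusted limma threshold. Cd68 differed from saline by 0.60 ± 0.17 with chrysotile, 0.41 ± 0.17 with crocidolite and 0.13 ± 0.17 with amosite. In that order Csf1r differed by -0.45 ± 0.19, -0.37 ± 0.19 and -0.46 ± 0.19. Mpeg1 differed by 0.96 ± 0.82, 0.99 ± 0.82 and -0.31 ± 0.82, with saline arrays at -2.02 and -0.03. Itgam had means of 5.94, 5.82 and 5.84, against 5.93 with saline. Ptprc, above background on 4 arrays, had means of -5.05, -4.81 and -4.58, against -4.88 with saline. Their part in the values of the cholesterol genes was not tested. In such bulk RNA, fewer cells of a type and less RNA per cell cannot be told apart. On each array 56.2% to 62.8% of 55681 probes were well above background. How precise any value can be is limited by having 2 arrays per group.

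Levels are given as log2 intensity relative to the array's 75th percentile, from the brightest probe of each gene, and are compared only within a probe. Every member was well above background on all 8 arrays and none was saturated. Differences are log2 values ± SE from 1 limma fit over the 8 arrays, with Benjamini-Hochberg adjustment over all genes tested and a threshold of 0.05. The labels do not say whether the 2 arrays of a group came from separate cultures, and the p-values therefore reflect array-to-array spread alone, which may be technical.

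None of the 28 genes passed the adjusted threshold with any fibre. Nor did any other gene on the array (0% called in each comparison), so the members' count of 0 equals the background. At an unadjusted p under 0.05 in the same limma fit, 0 members passed with chrysotile, 0 with crocidolite and 1 with amosite, where the background over all genes was 5.48%, 7.26% and 2.66%. The smallest adjusted p of a member was 0.910 with chrysotile, 0.703 with crocidolite and 1.00 with amosite. The F-test across the 4 groups also called 0 members, and 0 at an unadjusted p under 0.05, against 4.91% of all genes.

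The 95% intervals reflect array-to-array spread, so they do not bound a response across separate cultures. The median member difference from saline was -0.04 with chrysotile, 0.07 with crocidolite and -0.01 with amosite, where the medians over all genes were -0.01, -0.02 and -0.02. These medians turned sign with single arrays: leaving out 1 array gave -0.17 to 0.13 with chrysotile, -0.10 to 0.20 with crocidolite and -0.21 to 0.10 with amosite. For 25 of 28 members the 95% interval lay within a 2-fold change either way in each of these comparisons, against 79.7% of all genes with chrysotile, 78.5% with crocidolite and 81.9% with amosite. In this fit without a replicate block the exceptions with every fibre were Fdps, Srebf2 and Scarb1, whose 2 replicates stood far apart. Intervals lay within 1.5-fold for 17, 18 and 19 members in the same order of fibres (48.5%, 47% and 54.7% of all genes).

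**Figure D1:**
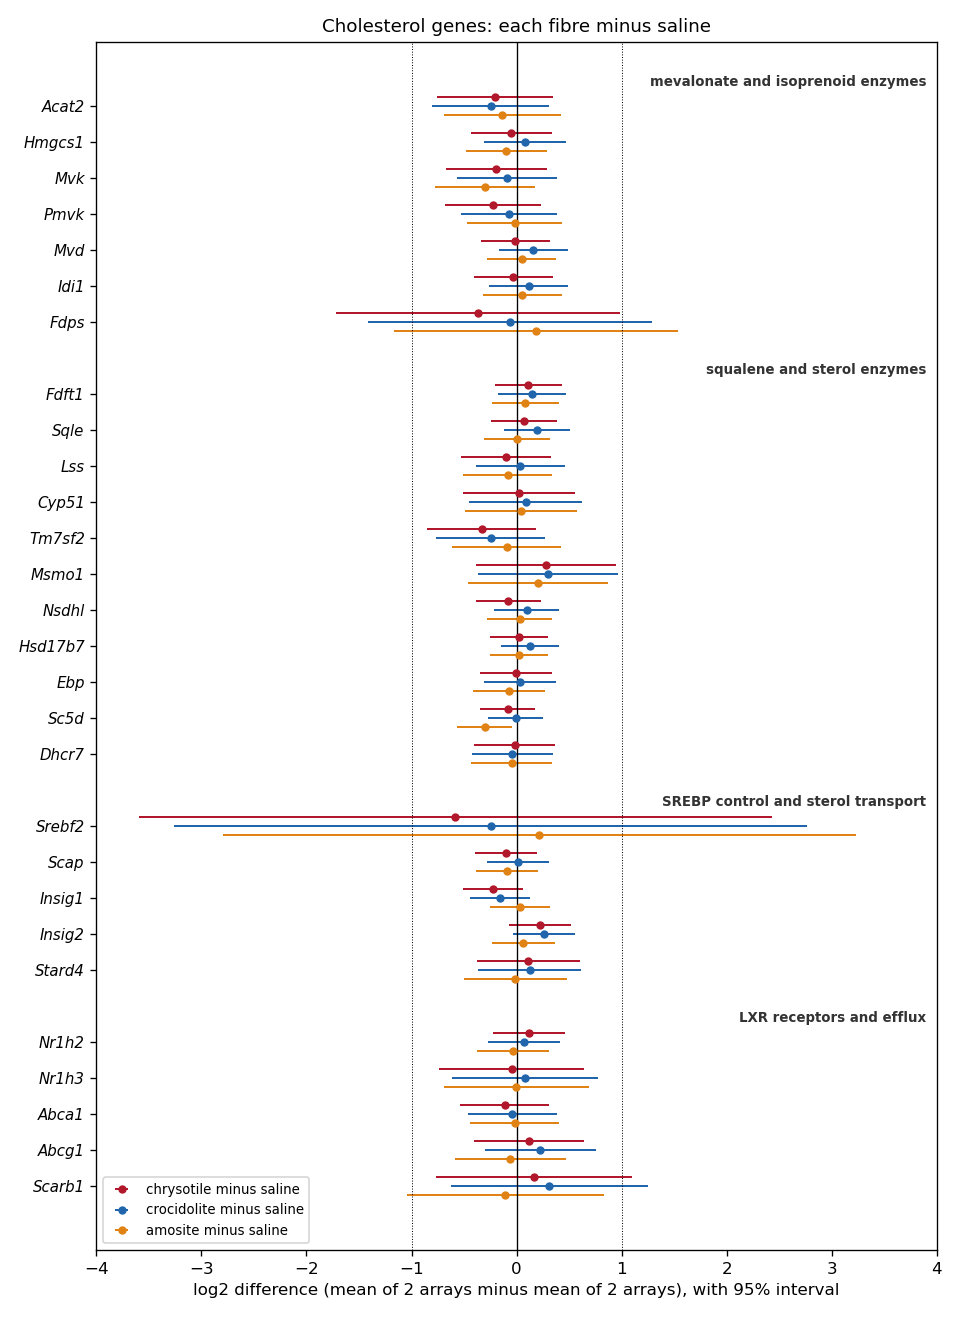
Log2 difference of each of the 28 genes between each fibre and saline (x axis, points with 95% intervals from the limma fit, 2 arrays per group), genes listed by role and dotted lines at a 2-fold change. Apart from Fdps and Srebf2 with chrysotile the points lie between -0.33 and 0.31, the intervals of Fdps, Srebf2 and Scarb1 pass the dotted lines, and the interval of Sc5d with amosite is the only one that leaves out 0.

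The first enzymes of the route build mevalonate and isoprenoid units. Hmgcs1, the cytosolic HMG-CoA synthase, had levels of 6.25 and 6.10 with chrysotile, 6.32 and 6.30 with crocidolite, 6.06 and 6.20 with amosite, and 6.03 and 6.42 with saline. Every fibre array lay between the 2 saline arrays. Its differences from saline were -0.05 ± 0.16 with chrysotile, 0.08 ± 0.16 with crocidolite and -0.10 ± 0.16 with amosite, so that with crocidolite the 95% interval ran from a fold of 0.809 to 1.38.

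Mvk, which phosphorylates mevalonate, gave 4.52 and 4.90 with chrysotile, 4.67 and 4.96 with crocidolite, 4.43 and 4.78 with amosite, and 4.86 and 4.95 with saline. Both amosite arrays lay below both saline arrays, while the other fibres overlapped with saline. The amosite difference was -0.30 ± 0.20 (limma adjusted p = 1.00), and a second probe of Mvk gave -0.13. Replicate 1 was the lower array in all 4 groups.

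The other members of this step were Acat2 (acetoacetyl-CoA thiolase), Pmvk and Mvd (which finish the isoprenoid unit), Idi1 (its isomerase) and Fdps (farnesyl diphosphate synthase). With chrysotile all 7 genes of the group had differences below 0 (11797 of 23041 over all genes), with a median of -0.19, and none had separate arrays. Their 2 replicate pairs had opposite signs in 5 of the 7, with medians of 0.04 in replicate 1 and -0.30 in replicate 2. Second probes gave 0.09 for Hmgcs1, 0.29 for Pmvk and -0.10 for Mvk with chrysotile. With crocidolite and amosite 3 of the 7 genes lay above 0 and 4 below, with medians of -0.06 and -0.02. Fdps had the widest spread here, with 3.83 and 3.35 for chrysotile, 4.44 and 3.34 for crocidolite, 4.82 and 3.45 for amosite, and 4.28 and 3.63 for saline. Its replicate 1 was higher than replicate 2 in every group, and the groups overlapped throughout.

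The next 11 enzymes close squalene into the sterol rings and trim them to cholesterol. Their median differences were 0.00 with chrysotile, 0.09 with crocidolite and 0.01 with amosite. The gene with the clearest separation was Sc5d, the C5-desaturase near the end of the route (probe at chr9:42062857-42062916, minus strand, build mm9). It had 2.75 and 2.84 with chrysotile, 2.87 and 2.87 with crocidolite, 2.52 and 2.64 with amosite, and 2.88 and 2.87 with saline. Both amosite arrays were lower than all 6 others.

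The Sc5d difference was -0.30 ± 0.11 with amosite, a fold of 0.812 with a 95% interval of 0.677 to 0.973. Its unadjusted p of 0.0300 was the only one under 0.05 among the members against saline, and its limma adjusted p was 1.00. With chrysotile the difference was -0.08 ± 0.11 and with crocidolite -0.01 ± 0.11. The direct comparison of crocidolite with amosite gave 0.29 ± 0.11 (unadjusted p = 0.0326, limma adjusted p = 0.901). Only 1 probe measures Sc5d, so no second probe could be set beside it.

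Tm7sf2, a sterol C14-reductase, had 3.50 and 3.62 with chrysotile, 3.45 and 3.83 with crocidolite, 3.65 and 3.95 with amosite, and 3.67 and 4.11 with saline. The chrysotile arrays lay below both saline arrays, and arrays of the same number differed by -0.17 in replicate 1 and -0.49 in replicate 2. The difference was -0.33 ± 0.21 (limma adjusted p = 0.912), and the second probe of the gene gave -0.27. With crocidolite the 2 probes gave -0.25 and -0.27, and with amosite -0.09 and -0.10.

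Msmo1, the C4-methyl sterol oxidase, had its widest spread within saline. It had 6.28 and 6.06 with chrysotile, 6.24 and 6.15 with crocidolite, 6.07 and 6.11 with amosite, and 5.46 and 6.33 with saline. The 6 fibre arrays all lay between the saline arrays, and saline replicate 1 stood lowest. The differences were 0.28 ± 0.27 with chrysotile, 0.30 ± 0.27 with crocidolite and 0.20 ± 0.27 with amosite.

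Among the other 8 enzymes, Sqle (squalene epoxidase, the first oxygen-requiring step) and Hsd17b7 (a 3-keto sterol reductase) had both crocidolite arrays above both saline arrays. Their crocidolite differences were 0.19 ± 0.13 for Sqle and 0.13 ± 0.11 for Hsd17b7. On their brightest probes, Fdft1 (squalene synthase), Lss (lanosterol synthase), Cyp51 (the C14-demethylase), Nsdhl (which removes C4 carbons), Ebp (the sterol isomerase) and Dhcr7 (the 7-dehydrocholesterol reductase) overlapped with saline for each fibre, with differences between -0.10 and 0.15. On a second, dimmer Nsdhl probe every fibre array lay above both saline arrays (-1.18 and -1.07). Its differences were 0.14 with chrysotile, 0.38 with crocidolite and 0.14 with amosite. A second Fdft1 probe, above background on 5 arrays, gave -0.38, -0.28 and -0.13 in that order.

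**Figure D2:**
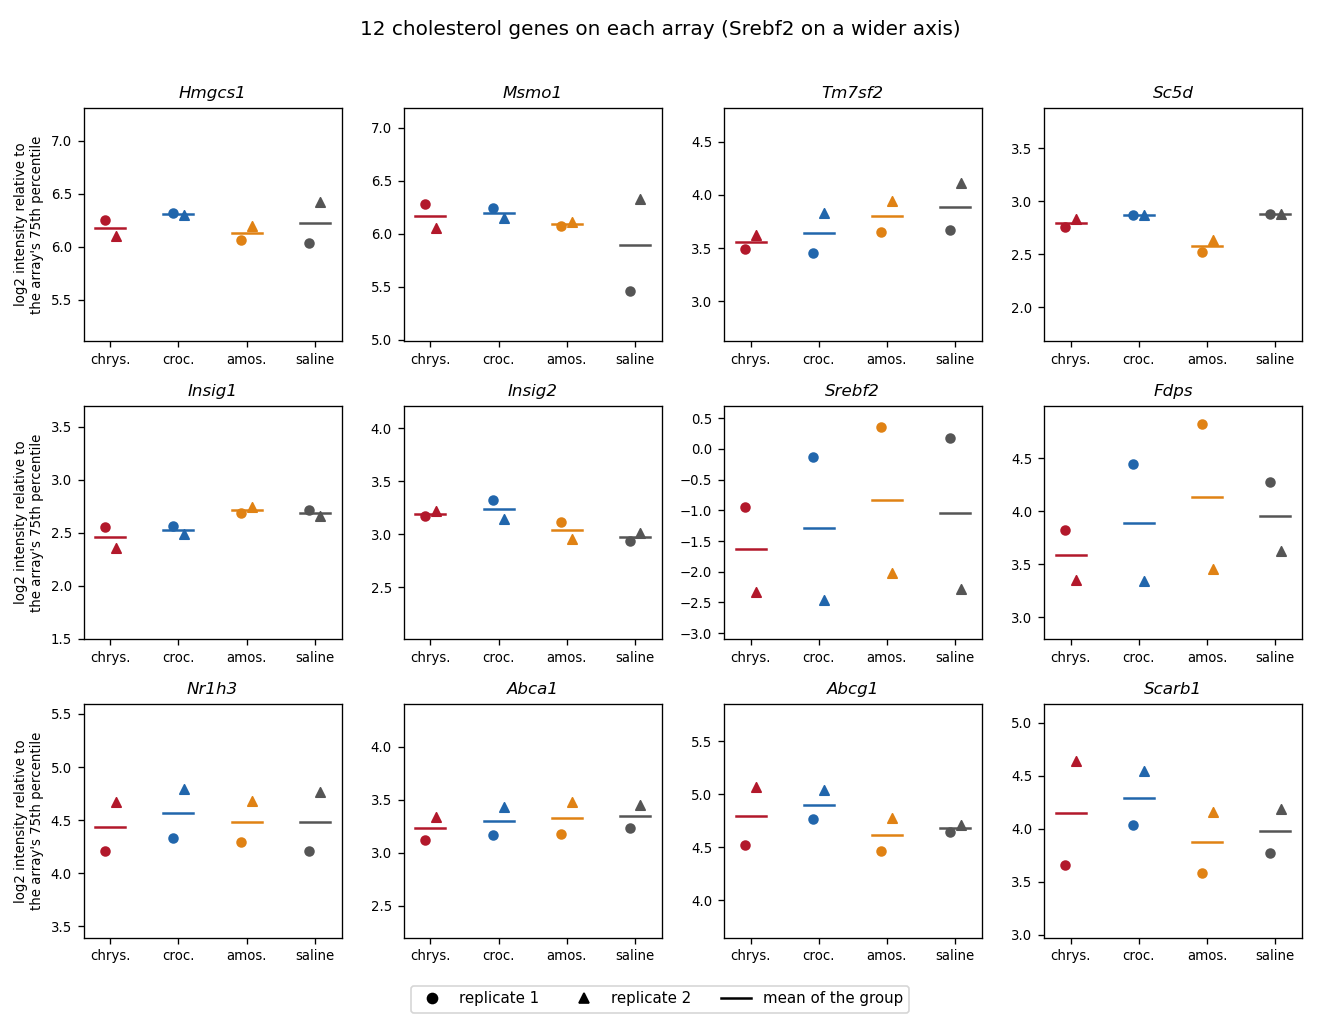
Level of 12 of the genes on each of the 8 arrays (y axis, log2 intensity relative to the array's 75th percentile, each panel centred on its own gene), circles for replicate 1, triangles for replicate 2 and a line at the mean of each group. Sc5d is lowest with amosite, Insig1 is low and Insig2 high with chrysotile and crocidolite, and in Srebf2, Fdps, Nr1h3 and Scarb1 the symbols part by replicate number in every group.

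The 2 INSIG genes stood on opposite sides of saline. Insig1, itself an SREBP target whose product retains SCAP (probe at chr5:28404246-28404305, plus strand, mm9), had 2.56 and 2.36 with chrysotile, 2.57 and 2.49 with crocidolite, 2.69 and 2.74 with amosite, and 2.71 and 2.66 with saline. All 4 arrays of chrysotile and crocidolite lay below both saline arrays, and amosite overlapped with saline. The differences were -0.23 ± 0.12 with chrysotile (fold 0.854, interval 0.700 to 1.04), -0.16 ± 0.12 with crocidolite and 0.03 ± 0.12 with amosite. Between chrysotile and amosite the difference was -0.26 ± 0.12 (limma adjusted p = 1.00).

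Insig2, the INSIG gene that is not driven by SREBP in the same way (probe at chr1:123201085-123201144, minus strand, mm9), had 3.17 and 3.21 with chrysotile, 3.32 and 3.15 with crocidolite, 3.12 and 2.96 with amosite, and 2.93 and 3.01 with saline. Chrysotile and crocidolite arrays were all above both saline arrays, and amosite overlapped. The differences were 0.22 ± 0.12 with chrysotile (limma adjusted p = 0.910), 0.26 ± 0.12 with crocidolite (adjusted p = 0.703) and 0.07 ± 0.12 with amosite. A second Insig2 probe gave 0.06, 0.16 and 0.04 in the same order, and its chrysotile and crocidolite arrays overlapped with saline. The 3 comparisons share the saline arrays.

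Over the whole set, few members had arrays that stood clear of saline. With chrysotile 1 member had both arrays above saline (14.2% of all genes did) and 3 had both below (15.3%). With crocidolite 4 were above (14.6%) and 2 below (19.9%), and with amosite 0 were above (8.2%) and 2 below (12.9%). The members with both arrays below saline were Tm7sf2, Sc5d and Insig1 with chrysotile, Sc5d and Insig1 with crocidolite, and Mvk and Sc5d with amosite. For Sc5d with crocidolite the nearest arrays read 2.8740 and, with saline, 2.8744, so that separation was negligible. Those above were Insig2 with chrysotile, and Sqle, Hsd17b7, Insig2 and Abcg1 with crocidolite.

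The widest replicate spread was that of Srebf2, the gene of SREBP-2. Its brightest probe (chr15:82034765-82034824, plus strand, mm9) read -0.94 and -2.33 with chrysotile, -0.13 and -2.46 with crocidolite, 0.36 and -2.02 with amosite, and 0.18 and -2.28 with saline. Replicate 1 was higher in all 4 groups, and replicate 2 minus replicate 1 was -1.39 with chrysotile, -2.33 with crocidolite, -2.38 with amosite and -2.46 with saline. No 2 group means lay that far apart. The differences from saline were -0.58 ± 1.24 with chrysotile, -0.24 ± 1.24 with crocidolite and 0.22 ± 1.24 with amosite. With replicate number as a block in the fit the SE was 0.29, and the unadjusted p was 0.0956 with chrysotile and, between chrysotile and amosite, 0.0372 (limma adjusted p = 0.569).

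A second Srebf2 probe (chr15:82030068-82030127) read -3.21 and -3.09 with chrysotile, -2.78 and -3.07 with crocidolite, -2.68 and -3.48 with amosite, and -2.37 and -3.08 with saline. Its replicate gap averaged -0.42, and it gave -0.43 with chrysotile, -0.20 with crocidolite and -0.35 with amosite, with the opposite sign to the first probe for amosite. Scap, the SREBP escort, and Stard4, which carries sterol through the cytosol, overlapped with saline for all 3 fibres, with differences between -0.10 and 0.13.

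The LXR genes gave no more separation. Nr1h3, the LXR-alpha receptor that is abundant in fat, had 4.21 and 4.67 with chrysotile, 4.34 and 4.79 with crocidolite, 4.29 and 4.68 with amosite, and 4.21 and 4.76 with saline. The groups overlapped fully, and the differences were -0.05, 0.08 and 0.00, each ± 0.28. Nr1h2, the more widespread LXR-beta, had differences of 0.12 with chrysotile, 0.07 with crocidolite and -0.03 with amosite, each ± 0.14.

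Abca1, the exporter whose promoter holds the LXR repeat and which hands cholesterol to lipid-poor apolipoproteins, had 3.13 and 3.34 with chrysotile, 3.17 and 3.44 with crocidolite, 3.17 and 3.48 with amosite, and 3.24 and 3.45 with saline. Its differences were -0.11 ± 0.17, -0.04 ± 0.17 and -0.02 ± 0.17 in that order, and with chrysotile the 95% interval ran from a fold of 0.690 to 1.24. No group separated from another.

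Abcg1, which loads cholesterol onto mature HDL, had 4.53 and 5.07 with chrysotile, 4.77 and 5.04 with crocidolite, 4.46 and 4.77 with amosite, and 4.64 and 4.71 with saline. Both crocidolite arrays were above both saline arrays, with a difference of 0.23 ± 0.22 (limma adjusted p = 0.855). Scarb1, the HDL receptor that moves cholesterol in both directions, had 3.65 and 4.64 with chrysotile, 4.04 and 4.55 with crocidolite, 3.59 and 4.16 with amosite, and 3.77 and 4.19 with saline. Its groups overlapped, and its differences were 0.17, 0.31 and -0.11, each ± 0.39.

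Setting the fibres against each other gave the same count of 0 members at the adjusted threshold (0% of all genes in each pair). At an unadjusted p under 0.05, limma gave 0 members between chrysotile and crocidolite (2.76% of all genes), 0 between chrysotile and amosite (4.33%) and 1, Sc5d, between crocidolite and amosite (5.11%). Chrysotile minus crocidolite was below 0 in 25 of 28 members (10804 of 23041 over all genes), with a median of -0.10, where the median of all genes was 0.01. In this pair 8 members had both chrysotile arrays below both crocidolite arrays (10.6% of all genes did) and 0 had them above (12.8%). The 8 were Hmgcs1, Pmvk, Mvd, Idi1, Nsdhl, Hsd17b7, Sc5d and Scap, of which the first 4 belong to the mevalonate group.

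Crocidolite minus amosite was above 0 in 21 of 28 members (11166 of 23041 over all genes), with a median of 0.10 against -0.01 over all genes. Both crocidolite arrays were above both amosite arrays in 8 members (17.6% of all genes) and below them in 1, Insig1 (20.3%). Chrysotile minus amosite had a median of -0.01, with 3 members above (17.8%) and 5 below (15.7%). The 3 pairs share arrays, so their counts are not separate pieces of evidence.

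The replicate number of the arrays, examined after the values were seen, separated some members. In a limma fit with both group and number, replicate 2 minus replicate 1 was called for 2 members, lower for Srebf2 at -2.14 ± 0.20 (adjusted p = 0.0245) and higher for Nr1h3 at 0.47 ± 0.06 (adjusted p = 0.0377). Over all genes 1.51% were called higher and 1.51% lower. Scarb1 at 0.62 ± 0.11 (adjusted p = 0.0565) and Fdps at -0.90 ± 0.17 (adjusted p = 0.0586) did not pass. In a second Nr1h3 probe the average gap was 0.42 and in a second Scarb1 probe 1.03.

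The 4 groups agreed in sign for 12 members higher in replicate 2 (17.4% of all genes) and 2 lower (19.5%), the 2 lower being Fdps and Srebf2. Of the 5 LXR and efflux genes, 4 were higher in replicate 2 in all groups, with a median gap of 0.30 over the 5. The number accounted for more of the variance than group did in 15 of 28 members, or 53.6%, against 38.4% of all genes. In Nr1h3 it held 94.9% of the variance over the arrays and group 3.55%, whereas in Sc5d group held 91.8% and number 3.87%. There are 4 groups and 2 numbers, so spread alone would give group the larger share on average. For Sc5d the F-test across the 4 groups gave an unadjusted p of 0.0903.

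Adipocyte markers moved with the number as well, with a median gap of 0.25 and 9 of 10 higher in replicate 2. Over all genes the median gap was -0.005, with 11298 of 23041 higher. The gap of the preadipocyte and fibroblast markers was -0.21, with 3 of 8 higher, and that of the 5 measured macrophage markers 0.15, with 3 of 5 higher. The labels do not say what the number stands for. The part of cell state, culture or array position in these gaps was not tested.

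**Figure D3:**
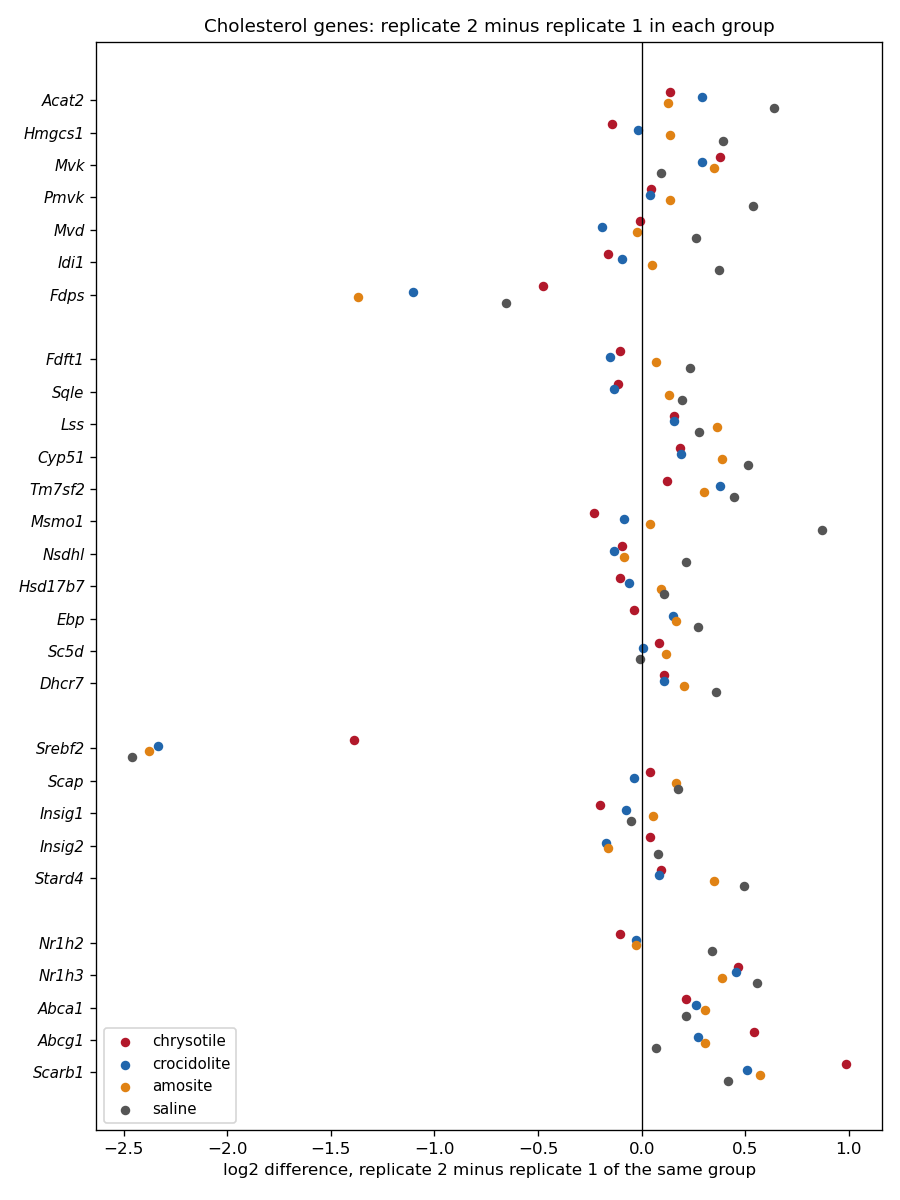
Replicate 2 minus replicate 1 within each group (x axis, log2) for each of the 28 genes, 1 point per group. Srebf2 and Fdps lie left of 0 in all 4 groups, Nr1h3, Abca1, Abcg1 and Scarb1 lie right of it in all 4, and many enzymes have their largest gap with saline.

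Fibre and saline arrays of the same number were also set side by side. The median member difference was 0.06 in replicate 1 and -0.14 in replicate 2 with chrysotile, 0.17 and -0.07 with crocidolite, and 0.05 and -0.09 with amosite. The 2 replicate pairs had opposite signs in 17 of 28 members with chrysotile (49.8% of all genes), 16 with crocidolite (42.9%) and 18 with amosite (55.9%). Saline was the group whose 2 arrays differed most, with a SD of the replicate difference over all genes of 0.544, against 0.434 with chrysotile, 0.397 with crocidolite and 0.374 with amosite.

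A fit with the replicate number as a block takes these gaps out of the error. It called 0 members after adjustment, and at an unadjusted p under 0.05 limma gave 1 member with chrysotile (10.5% of all genes), 0 with crocidolite (13.4%) and 2 with amosite (4.54%). They were Tm7sf2 with chrysotile (limma adjusted p = 0.453), and Sc5d and Mvk with amosite (limma adjusted p = 1.00 for both). Between fibres it gave 0 members for chrysotile and crocidolite (4.52%), 2 for chrysotile and amosite (8.61%), Srebf2 and Insig1, and 2 for crocidolite and amosite (10%), Sc5d and Scarb1.

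In the blocked fit the SE was 0.24 for Fdps and 0.16 for Scarb1. The 95% interval then lay within 2-fold for 27 members with chrysotile (85.2% of all genes), all but Srebf2. It did so for 27 with crocidolite (83.8%), all but Msmo1, and for all 28 with amosite (87%).

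For 12 members more than 1 probe was measured, which gives 13 further probes. Set beside the brightest probe of the gene, 8 of the 13 had the same sign with chrysotile, 10 with crocidolite and 8 with amosite, and the median gap between probes was 0.13, 0.10 and 0.11 log2. Pmvk had the largest gap with chrysotile, with 0.29 from the second probe and -0.23 from the brightest. That second probe read 3.57 and 3.57 with chrysotile and 2.62 and 3.95 with saline, and saline replicate 1 was the lowest of its 8 arrays. Mvk and Tm7sf2 kept a negative sign on both probes with every fibre, and Insig2 a positive one.

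**Figure D4:**
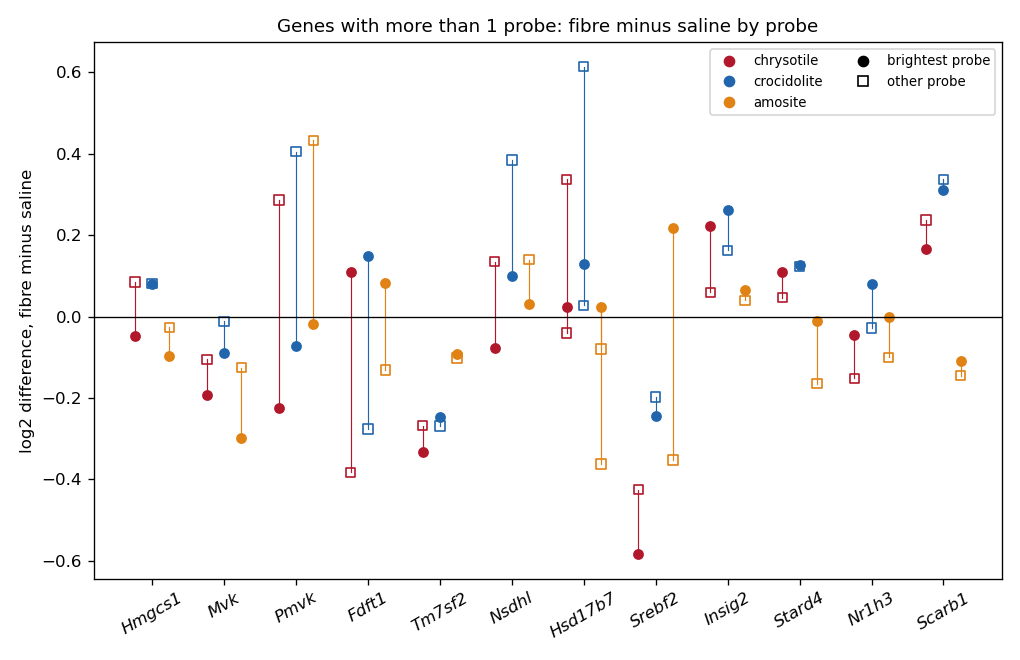
Log2 difference from saline (y axis) for the 12 genes with more than 1 probe, filled circles for the brightest probe and open squares for each other probe, coloured by fibre. Probes of Mvk, Tm7sf2, Insig2 and Scarb1 fall on the same side of 0 for each fibre, while those of Pmvk and Fdft1 fall on opposite sides; the second Fdft1 probe was above background on 5 arrays.

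The surrounding pathway, 45 further genes of sterol uptake and storage, SREBP processing, other SREBP targets and LXR partners and targets, also had 0 calls with each fibre in limma after adjustment. At an unadjusted p under 0.05, 2 of the 45 were higher (2.83% of all genes) and 2 lower (2.66%) with chrysotile. With crocidolite 2 were higher (2.86%) and 3 lower (4.41%), and with amosite 0 were higher (1.09%) and 1 lower (1.58%). Fasn, the fatty acid synthase driven by SREBP-1c and LXR, had 0.87 and 0.91 with chrysotile, 0.93 and 1.01 with crocidolite, 1.07 and 1.27 with amosite, and 1.27 and 1.43 with saline. The arrays of all 3 fibres were below both saline arrays, for amosite by a negligible margin (1.269 against 1.271). The differences were -0.46 ± 0.13 with chrysotile (limma adjusted p = 0.898), -0.38 ± 0.13 with crocidolite (adjusted p = 0.644) and -0.18 ± 0.13 with amosite (adjusted p = 1.00).

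The 2 genes counted as higher with chrysotile were Cyp7b1 and Ch25h. Cyp7b1, which hydroxylates oxysterols, had -2.50 and -2.26 with chrysotile, -1.76 and -2.44 with crocidolite, -2.99 and -3.16 with amosite, and -3.14 and -3.01 with saline. Chrysotile and crocidolite arrays were above both saline arrays, while amosite overlapped with saline. The differences were 0.70 ± 0.24 with chrysotile (limma adjusted p = 0.898) and 0.98 ± 0.24 with crocidolite (adjusted p = 0.564). Ch25h, which makes 25-hydroxycholesterol, was well above background on both chrysotile arrays and on no other, at least 1.41-fold higher with chrysotile than with saline. It passed the filter on dim probes only through chrysotile and so had to differ, and its place among the 2 genes counted as higher is no support. The bound sets each saline array at no less than its dimmest detected signal, and the measured means were -3.96 with chrysotile and -5.00 with saline.

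The remaining genes named by the same rule were Lipa, Arl4c, Gramd1b, Gramd1c, Mylip and Abcg4. Lipa, the lysosomal lipase that frees cholesterol from its esters, differed by 0.40 ± 0.13 with crocidolite (limma adjusted p = 0.630). Arl4c, an LXR target, differed by -0.50 ± 0.15 with crocidolite and -0.41 ± 0.15 with amosite, and Gramd1b, which carries cholesterol between membranes, by -0.33 ± 0.12 with chrysotile. With amosite, Gramd1c, a relative of Gramd1b, differed by 0.18 ± 0.15, the ubiquitin ligase Mylip by 0.09 ± 0.11 and the sterol transporter Abcg4 by -0.24 ± 0.12. None of them passed the adjusted threshold.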

How the data were processed

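The authors scanned 1-colour arrays with Agilent Feature Extraction 10.7, per the submitters' processing notes (10.7.1.1 and build mm9 per the file headers). The deposited scanner files hold the processed intensity of each spot, background-subtracted by that software. The authors' deposited value table holds that same processed intensity, not logged (largest difference 0).

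Levels were taken as log2 of that intensity minus each array's 75th percentile. Control spots and outlier flags (99 to 183 spots per array) were left out, with 9 probes missing on an array. Probes well above background on both arrays of at least 1 group were kept (33028), and the brightest stood for its gene. Symbols of 26762 probes were updated through RefSeq. The 4 groups of 2 arrays entered 1 limma fit (R 4.3.3, limma 3.58.1, the data.table package, 1.17.8; 4 residual and 2.22 prior degrees of freedom, two-sided, Benjamini-Hochberg), tested on simulated data. Same-numbered arrays deviated together (r of 0.25 to 0.45 in the 6 pairs of groups), so a fit with the number as a block (3 residual and 2.08 prior degrees of freedom) was also made. The members and lists were chosen with earlier results of these data known. All 28 members are named; of the other pathway genes, the 2 highest and 2 lowest by moderated t with separate arrays in each comparison with saline. Exons and UTRs of probes were not analysed here.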

Additional observations from a re-analysis of the deposited data

How the results depend on the processing

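The members called numbered 0 in all 6 comparisons under each alternative run, and in the F-test under each but the 2 groups alone, which has no such test: replicate block, normexp background (offset 50), quantile scaling, the percentile over probes detected on all arrays, no filter, a stricter filter, a trended robust prior, the mean over probes, the deposited value table, the 2 groups alone and each array left out. The deposited value table holds the same intensities as the scanner files, so that run could not differ. With the replicate block the smallest adjusted p of a member was 0.387, and it changed no call. Without any filter the median log2 difference over all genes reached a size of up to 0.11. Apart from leaving out arrays, these alternatives kept the members' medians within the spread between replicates. Leaving out 1 array gave medians of -0.17 to 0.13 for chrysotile, -0.10 to 0.20 for crocidolite and -0.21 to 0.10 for amosite against saline, -0.10 to -0.055 for chrysotile against crocidolite, -0.061 to 0.087 for chrysotile against amosite and 0.03 to 0.13 for crocidolite against amosite. The signs against saline turned with the saline array: without saline replicate 1 the median was -0.10 for crocidolite and -0.21 for amosite, and without saline replicate 2 it was 0.13 for chrysotile and 0.10 for amosite. Without amosite replicate 2 it was -0.15 against saline, and 0.087 for chrysotile against amosite. The members called between replicate numbers were 2 in the fit reported, 8 with normexp, 4 with the stricter filter and 0 with no filter, which added genes to the test. Of the 1512 differences of single members from saline under these alternatives, 1470 kept their sign or moved by less than their SE. The other 42 changed sign and moved by more. With 2 arrays per group, small differences could not be told from the spread.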
